A study of Avena sativa with 108 samples.

Results

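Cultivated oat (Avena sativa) is an allohexaploid whose chromosomes form an A, a C and a D set, each with 7 chromosome numbers. The genes of the C subgenome, those on chromosomes 1C to 7C, are described here beside the genes of the A and D subgenomes. They were taken by the letter that follows the chromosome number in the gene identifier, a choice that used no expression value. Of the 68572 genes of the count tables, 22097 (32.2%) were C genes, 22532 (32.9%) were A genes and 23320 (34.0%) were D genes, and 623 carried no chromosome. Gene identifiers are given from the chromosome number onward, without the prefix that all of them share.

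A and D are the more closely related subgenomes of oat, and C diverged from them earlier. The C chromosomes are large and rich in heterochromatin and repeats, and pieces of chromosomes have moved between C and the other subgenomes since the polyploid formed, so that a gene of C ancestry can lie on an A or D chromosome and the reverse. In a polyploid, the copies of 1 ancestral gene on the different subgenomes are called homeologs. The grain is filled with storage proteins, chiefly 12S globulins with smaller amounts of prolamins (avenins in oat), and is drawn on when it germinates.

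RNA was sequenced from the spring oat cultivars AC Morgan and CDC Morrison. Whole developing grain was collected at 5, 10, 15, 20, 25, 30, 35 and 40 DPE (days postemergence of the panicle), and germinating grain was divided into embryo and endosperm at 0, 3, 6, 24 and 48 h, with 3 biological replicates in each of the 36 groups. By the study's methods, plants of both cultivars were grown from seed treated with a fungicide, and each replicate of developing grain was a pool of grains from a single panicle. Replicate 1 of CDC Morrison at 10 DPE was left out, as the choice of libraries required, which left 47 libraries of developing grain, 30 of embryo and 30 of endosperm. In such bulk samples, fewer cells of a type and less RNA per cell cannot be told apart.

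The total of estimated counts per library lay between 11235846 and 30846412 in developing grain, between 3895703 and 39871377 in embryo and between 4800265 and 19597061 in endosperm. A library stood apart in its counts on genes without a chromosome. In replicate 2 of CDC Morrison endosperm at 0 h, 36.2% of the counts fell on genes with no chromosome, against 3.74 to 5.53% in the other libraries of that cultivar and time. Other libraries differed from the replicates of their group in the counts of single genes. By the median over genes of a chi-square of the counts, divided by the value that sampling alone gives, replicate 1 of CDC Morrison embryo at 24 h differed from the other replicates by 32.2 and 32.9, and those from each other by 4.65. Replicate 1 likewise stood farther from both others in CDC Morrison embryo at 0, 3, 6 and 48 h and in its endosperm at 0 h. Replicate 3 did so in CDC Morrison endosperm at 24 h and in CDC Morrison grain at 30 DPE. Without replicate 1 of every group, 5025 C genes in place of 6173 differed between the cultivars in embryo over the mean of the times. Leaving out any replicate number also leaves fewer libraries in each group. On chromosome 1C the share that differed in embryo was 42.1% without replicate 1, 37.8% without replicate 2 and 39.5% without replicate 3. In grain at 30 DPE 7323 C genes in place of 7276 differed between the cultivars without replicate 3, 3438 without replicate 1 and 3789 without replicate 2. The tissue labels were checked against marker genes. Genes of 12S globulins took 4.09% of the counts in endosperm and 0.25% in embryo at 0 h, whereas oleosin and caleosin genes, chosen as embryo markers, took more of the counts in endosperm (0.993%) than in embryo (0.498%) at 0 h and so did not mark the embryo in these libraries. Chlorophyll a-b binding and photosystem genes, the markers of green pericarp, had their highest share in grain at 10 DPE, 0.357%.

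The C genes took a smaller part of the counts than of the genes. Their share of the counts was lower than the share of A genes in all libraries but 1 and lower than that of D genes in all but 1. The exception was in both cases replicate 2 of CDC Morrison endosperm at 0 h, which also had the lowest C share in endosperm. In developing grain the C share ranged from 17.7 to 30.8% over the 47 libraries with a median of 27.4%, and the mean was 25.2 ± 4.37% (SD) for C, against 32.2% for A and 38.7% for D. In embryo it kept to a narrow range, 28.2 to 30.2% (mean 29.3 ± 0.424%, n = 30), and in endosperm it lay between 22.5 and 29.7% (mean 27.1 ± 1.63%, n = 30). No test was made of these shares. They count reads per gene without regard to gene length, since gene lengths were not used here, and the authors' quantification can divide reads between nearly identical homeologs.

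**Figure D1:**
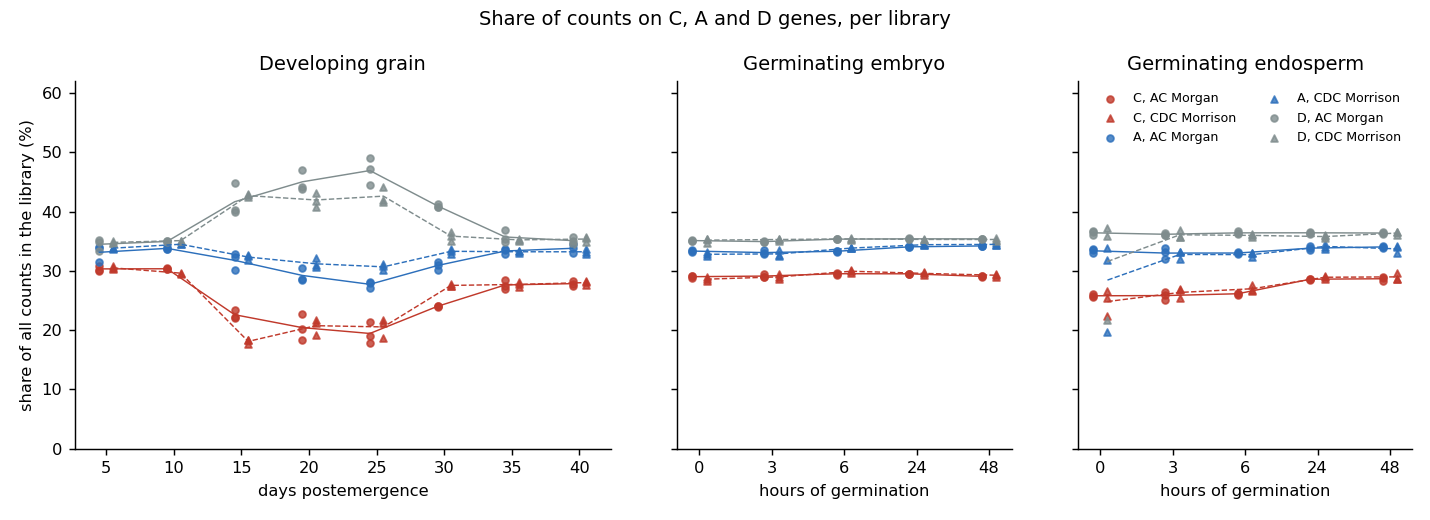
Percent of the estimated counts of each library on A, C and D genes, by time, for developing grain (DPE), embryo and endosperm (hours of germination). Each point is 1 library; in developing grain the C share goes down from about 30% at 5 and 10 DPE to values between 17.7 and 23.5% from 15 to 25 DPE, while in embryo it stays between 28.2 and 30.2%.

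The course of the C share over grain development had 3 levels. At 5 DPE the C genes took 30.3 ± 0.445% (SD, n = 3) of the counts in AC Morgan and 30.5 ± 0.248% (n = 3) in CDC Morrison. At 20 DPE the shares were 20.4 ± 2.24% and 20.8 ± 1.38%, and at 25 DPE they were 19.4 ± 1.80% and 20.5 ± 1.62%, with 3 libraries each. The shares of both cultivars overlapped at these times. At 35 DPE they stood at 27.6 ± 0.741% and 27.7 ± 0.415%, and at 40 DPE at 27.8 ± 0.472% and 28 ± 0.381%, below those of 5 DPE in every library. The D genes moved the other way and reached 46.9% of the counts of AC Morgan at 25 DPE.

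The cultivars separated at the start and at the end of the low phase. At 15 DPE the C share was 22.1, 22.3 and 23.5% in the AC Morgan libraries and 17.7, 18.3 and 18.3% in those of CDC Morrison, so that every CDC Morrison library lay below every AC Morgan library and the means differed by -4.50 percentage points. At 30 DPE the order was the reverse. The AC Morgan libraries had 24.1, 24.0 and 24.0% and the CDC Morrison libraries 27.7, 27.5 and 27.5%, a difference of 3.53 points. The groups did not overlap at 10 DPE either (30.4 ± 0.0846%, n = 3, against 29.6 ± 0.119%, n = 2), where the difference was -0.737 points.

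Storage protein genes took more of the counts where the C share was low. The 86 genes matched to 12S globulins, prolamins, 7S globulins and puroindolines comprised 13 C genes, 23 A genes, 43 D genes and 7 without a chromosome. At 5 DPE they took 0.03% of the counts in AC Morgan and 0.02% in CDC Morrison. At 15 DPE their share was 37.6 ± 4.64% in AC Morgan and 53.9 ± 1.15% in CDC Morrison, and at 30 DPE it was 27.1 ± 0.63% and 9.5 ± 4.01% (n = 3 each), so the cultivar with more storage protein counts was the one with the lower C share at both times. The C genes held 9.73% of the storage protein counts in AC Morgan and 8.11% in CDC Morrison at 15 DPE. With the storage protein genes set aside, the C share was 27.8 to 31.4% in every grain library. The cultivars then overlapped at 30 DPE and still stood apart at 15 DPE (30.4% in AC Morgan and 29.8% in CDC Morrison) and at 10 DPE (30.4 and 29.6%).

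**Figure D2:**
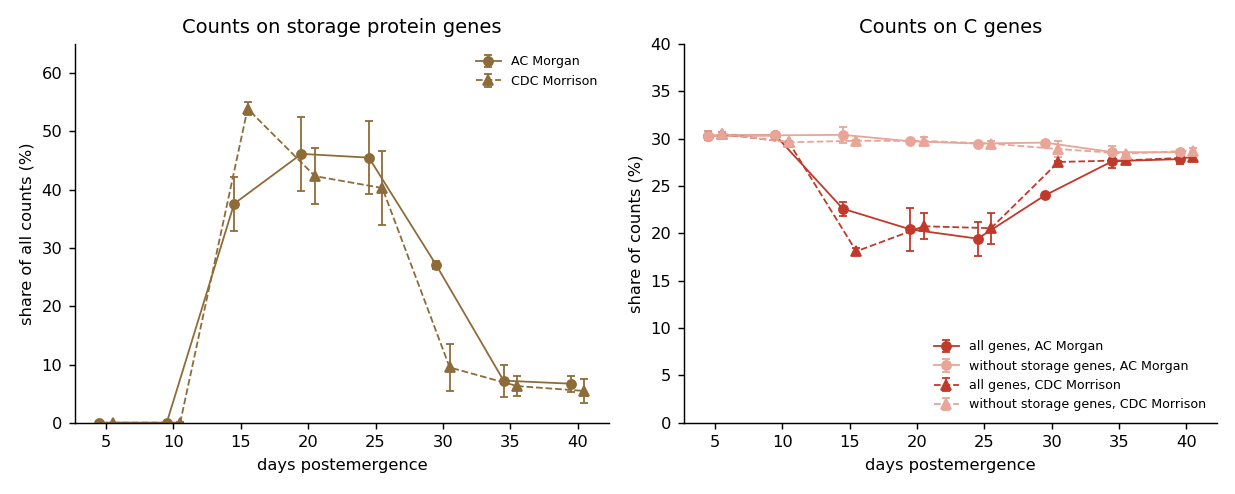
Percent of counts on the 86 storage protein genes (left) and on C genes with all genes or without the storage protein genes (right), by DPE, as the mean and SD of 3 libraries for each cultivar (2 for CDC Morrison at 10 DPE). At 15 DPE storage protein genes take 37.6% in AC Morgan and 53.9% in CDC Morrison and the C share of all counts is 22.6 and 18.1%, while the C share without storage protein genes stays near 30%.

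The C share was also taken without the most abundant genes of any kind. Of the 100 most abundant genes of developing grain, 22 were C genes, 29 A genes and 42 D genes. In embryo the numbers were 26, 36 and 35, and in endosperm 19, 31 and 41. Without these 100 genes the C share was below the A and the D share in every library used, but it no longer separated the cultivars at 15 DPE (29.6% in AC Morgan and 29.1% in CDC Morrison) or at 30 DPE (29.9 and 29.7%), where the libraries of the cultivars overlapped. They did not overlap at 10 DPE (30.1 against 29.5%), nor at 5 DPE (29.9 against 30.3%) and 40 DPE (29.7 against 29.4%), where they had overlapped with all genes. These alternatives were chosen in part after the data had been seen.

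In germinating grain the C share differed between the tissues at 0 h and less at 48 h. In embryo it was 29.0% in AC Morgan and 28.6% in CDC Morrison at 0 h and 29.1 and 29.3% at 48 h. In endosperm it was 25.8 ± 0.254% in AC Morgan at 0 h and 28.7% at 48 h. The CDC Morrison endosperm libraries at 0 h had 25.5, 22.5 and 26.5%, of which the lowest is the library with 36.2% of its counts on genes without a chromosome. At 48 h CDC Morrison endosperm had 29.0%. The storage protein genes took 16% of the endosperm counts of AC Morgan and 13.1% of those of CDC Morrison at 0 h, and 5.14 and 3.08% at 48 h. The endosperm libraries of the cultivars did not overlap at 6 h (26.1 against 27%) and at 24 h (28.6 against 28.9%), and without the 100 most abundant genes they overlapped at both times.

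The most abundant C genes of developing grain were mostly storage protein genes. In CPM (the library's counts scaled to a fixed sum, without further correction), the leading C gene was 1Cg0000313, matched to oat 12S seed storage globulin 1, with a mean of 5990 over the grain libraries, 4.29 at 5 DPE and 17066 at 15 DPE, and it ranked 7 among all genes. It was followed by 7Cg0001208, a 63 kDa globulin-like protein (mean 3534), 7Cg0003031, an avenin (2659), 2Cg0001940, another 12S globulin 1 (2587), and 3Cg0002149, a 26 kDa endochitinase 1 (1901), an enzyme that cuts chitin of fungal walls. The globulins 1Cg0000313 and 2Cg0001940 were highest at 15 DPE, the avenin at 25 DPE, and 7Cg0001208 and 3Cg0002149 at 35 DPE. The 5 genes therefore peaked at different times of filling and drying.

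After TMM scaling (a scaling that sets aside the most extreme genes), the CPM of the 12S globulin gene 1Cg0000313 at 15 DPE was 17355, 23463 and 15964 in AC Morgan and 31568, 31246 and 28176 in CDC Morrison. At 30 DPE it was 6275, 6752 and 6056 in AC Morgan and 269, 423 and 1279 in CDC Morrison. The cultivars did not overlap at either time, with CDC Morrison the higher at 15 DPE and the lower at 30 DPE. The second 12S globulin gene, 2Cg0001940, had 10747, 10855 and 8575 CPM in AC Morgan and 17896, 19006 and 15268 in CDC Morrison at 15 DPE, and at 30 DPE 1901, 2069 and 2003 in AC Morgan and 36.1, 68.6 and 513 in CDC Morrison. By the interaction of cultivar and time, in the quasi-likelihood test of edgeR with p-values adjusted after Benjamini and Hochberg over all genes, both changed differently in the 2 cultivars (adjusted p = 0.0128 for 1Cg0000313 and 0.00143 for 2Cg0001940). The globulin-like 7Cg0001208 had 4305, 4313 and 6606 CPM in AC Morgan and 10814, 10480 and 8849 in CDC Morrison at 30 DPE. The adjusted p of its interaction was 0.208.

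In embryo the leading C gene, 2Cg0000622, has no deposited protein match. Its mean was 2473 CPM without scaling (rank 4 of all genes), 5721 at 0 h and 149 at 48 h. It was followed by the globulin-like 7Cg0001208, which stood at 3793 CPM at its highest time and 4.23 at 48 h, and by genes of general protein handling, heat shock protein 81-1 (5Cg0002371, 1229 CPM), 40S ribosomal protein S8 (1Cg0001541, 907 CPM) and elongation factor 2 (7Cg0000224, 906 CPM). In endosperm 7Cg0001208 led with 10767 CPM (rank 3 of all genes), 17157 at 3 h and 3187 at 48 h. Endochitinase 3Cg0002149 (8090 CPM), non-specific lipid-transfer protein 1 (5Cg0001458, 6621 CPM) and pathogenesis-related protein PRB1-2 (4Cg0002044, 4568 CPM) came next, and these matches belong to families known for defense.

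Functional groups held very different parts of their counts on C genes. The groups were read from the deposited protein matches. C genes were 7.14% of the 42 genes of 12S globulins (3 genes) and took 5.03% of their counts in grain, 4.04% in embryo and 5.16% in endosperm. Of 28 prolamin genes 3 were C genes, with 8.57% of the counts in grain. Puroindolines, lipid-binding proteins linked to grain softness, were the contrary case, since 5 of 9 genes were C genes and took 49.4% of the counts in grain and 52.5% in endosperm. The 7S globulins lay between, with 2 of 7 genes and 24.5% of the counts in grain.

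Cytosolic ribosomal proteins (138 C genes of 451) had 27.7% of their counts on C genes in grain, 27.5% in embryo and 26.8% in endosperm. For histones (57 of 172) the values were 28.6, 31.7 and 31.2%, and for the WRKY, NAC and MADS-box transcription factors (130 of 386) 36.4, 34.4 and 35.6%. Disease resistance proteins (323 of 1238) had 22.4, 21.9 and 22.3%, and the glycosyltransferases of wall glucans (23 of 87) 21, 20.5 and 20.8%. The C part differed more between tissues for the protease and amylase inhibitors (21 of 46), with 27.7% in grain, 49.3% in embryo and 15.8% in endosperm, and for the cysteine proteases of reserve breakdown (9 of 36), with 34.2, 22.3 and 38.7%.

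Fewer C genes than A or D genes were detected at equal depth. After thinning of every library to the smallest total found, 59.9% of the C genes had at least 5 counts in a grain library on average, against 61.0% of the A genes and 61.0% of the D genes. In embryo the shares were 62.5, 64.1 and 64.5%, and in endosperm 54.7, 55.9 and 56.2%. The C share was below the A share in every library, by 0.116 to 3.13 points, and below the D share in all but 1. In the libraries as deposited it was below the A share in 86. With at least 1 count in place of 5, the C share was below the A share in 40 of 47 grain, 26 of 30 embryo and 20 of 30 endosperm libraries and below the D share in 33, 29 and 17. The means were then 77.3% for C, 77.6% for A and 77.5% for D in grain and 72.2, 72.3 and 72.2% in endosperm. The most C genes were detected in AC Morgan at 10 DPE (68.1%) and the fewest of the grain groups in CDC Morrison at 15 DPE (53.7%), where 58.7% were detected in AC Morgan. CDC Morrison was below AC Morgan without overlap at 10 DPE (64.4%), at 15 DPE and at 40 DPE (54.7 against 57.2%). This course was not particular to C. Over both cultivars the detected share went from 66.6 to 56.2% for C between 10 and 15 DPE, from 67.8 to 57.6% for A and from 67.7 to 56.9% for D. At 15 DPE storage protein genes took 37.6% of the counts in AC Morgan and 53.9% in CDC Morrison. Whether this bears on detection was not tested.

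Much of the gap in detection lay in genes without a deposited protein match. Of the C genes 70.0% had such a match, of the A genes 76.6% and of the D genes 76.4%, and 2.78% of the C genes were matched to transposon proteins, against 1.72 and 1.81%. Among genes with a match, the detected share in grain was 65% for C, 64.4% for A and 64.6% for D, and C was below A in 5 of 47 libraries. In endosperm it was 60.1, 59.3 and 59.6%, with C below A in 0 of 30 libraries. Among genes without a match C was below A in every library, with 48.0, 49.8 and 49.6% in grain. The share of counts was another matter, since genes with a match gave a C share of 24.3% in grain. Genes without a match took 12.4% of the C counts in grain, 8.59% of the A counts and 7.72% of the D counts. This division by protein match was made after the data had been seen.

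Single genes of matched annotation were compared in groups of 3, with 1 A, 1 C and 1 D gene that share 1 protein match no other gene in the table with that match. There were 3108 such groups, in 1657 of which the 3 genes lie on chromosomes of the same number. A shared match does not show that the genes are homeologs, and the share of the C gene depends on the lengths of the 3 genes. The median C share of a group's counts was 32.8% in grain, 32.5% in embryo and 32.5% in endosperm. For the A gene the medians were 33.0, 33.2 and 32.7% and for the D gene 32.3, 32.5 and 32.0%, so the C gene of the median group stood between the other 2 or level with them. Depending on the library, 2415 to 3080 groups had the 10 summed counts required.

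**Figure D3:**
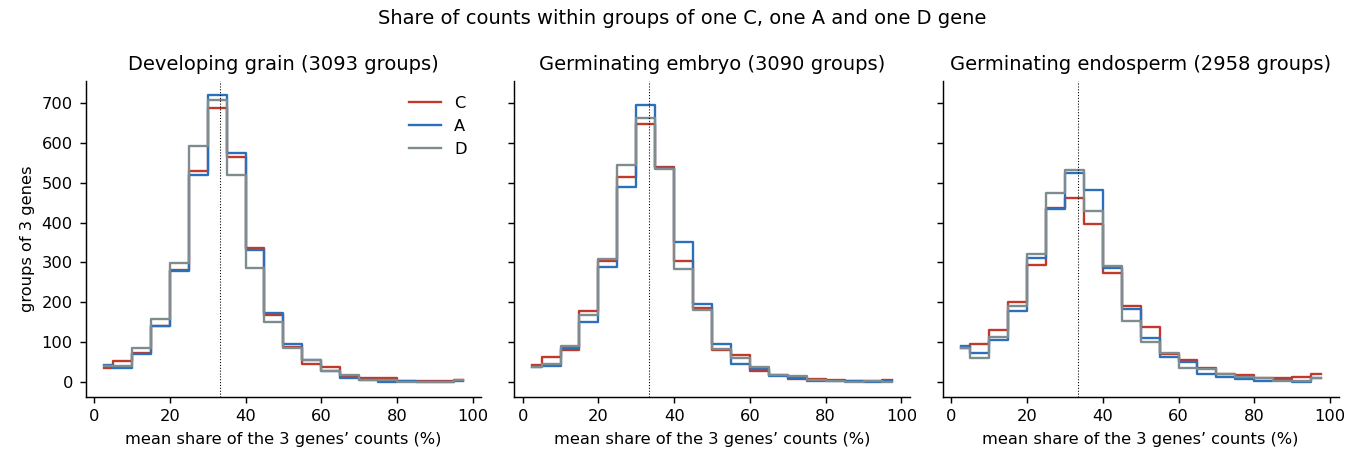
Number of groups of 1 A, 1 C and 1 D gene (vertical axis) by the mean percent of the group's counts on each gene (horizontal axis), in developing grain, embryo and endosperm. The 3 outlines lie close together, with medians of 32.8% for C, 33.0% for A and 32.3% for D in grain.

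Groups in which a gene had under 10% of the counts were few for each subgenome, and most frequent for the C gene. The difference between the subgenomes was not tested. Such a share is relative to the other genes of the group and does not mean that the gene was silent. Of 2916 groups with at least 10 summed counts in 54 or more libraries, the C gene had under 10% of the counts in 73, the A gene in 55 and the D gene in 65. It had over 50% in 220, against 200 for A and 206 for D. The middle of the distribution of the C gene ran from 26.7 to 39.9% (lower and upper quartile).

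Among the 30 groups with at least 500 summed CPM, the C gene had its largest mean shares over the tissues in isocitrate lyase, tubulin alpha-1 and S-adenosylmethionine decarboxylase. Isocitrate lyase belongs to the glyoxylate cycle, through which germinating seeds turn stored fat into sugar. Its C gene 2Cg0000666 had 43.1% of the group's counts in grain (SD 25.2 over libraries), where the D gene had more (47.9%), 67.2% in embryo and 71.0% in endosperm, and in endosperm it went from 676 ± 211 CPM in AC Morgan and 987 ± 709 in CDC Morrison at 0 h to 4971 ± 410 and 4294 ± 1537 at 48 h (TMM-scaled, SD, n = 3). For tubulin alpha-1 (7Cg0000920), a building block of microtubules, the C shares were 50.5, 47 and 66.9%, and for S-adenosylmethionine decarboxylase (2Cg0002211), an enzyme of polyamine synthesis, 44.8, 46.6 and 62.8%. In these 3 groups the C share was higher in endosperm than in grain.

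At the other end, the C gene for alanine aminotransferase 2 in the group of 7Ag0000472, 6Cg0000800 and 3Dg0002297 had 0.104% of the counts in grain, 0.0775% in embryo and 0.0443% in endosperm, while the A gene had 59.9% and the D gene 40.0% in grain. For cupincin (7Cg0000535), a protein of the cupin family, the C shares were 5.05, 5.77 and 4.82%, and for defensin-like protein 1 (7Cg0002023) they were 24.3, 16.6 and 17.7%.

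C genes that depended on stage were sought by the quasi-likelihood test of edgeR on all genes that passed the filter on low counts, and the calls (adjusted p under 0.05) were then divided by subgenome. Of the C genes, 19978 were tested in developing grain and 19974 in germination. In developing grain 17986 C genes differed among the 8 times (90.03%), beside 89.4% of all genes tested, 89.6% of the A genes and 88.9% of the D genes. In embryo 16469 C genes did (82.5%, all genes 82.4%), and in endosperm 12830 (64.2%, all genes 63%, A 62.3%, D 62.8%). The C share of calls was above both others in grain and endosperm, and no test of these differences was made.

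The C genes with the largest F for stage that passed a mean of 100 CPM were, in grain, matched to benzaldehyde dehydrogenase (5Cg0003039), a thaumatin-like pathogenesis-related protein (1Cg0000041) and succinate-semialdehyde dehydrogenase (6Cg0001864). 5Cg0003039 went from 0.0415 ± 0.037 CPM in AC Morgan and 0.0814 ± 0.081 in CDC Morrison at 5 DPE to 291 ± 70.7 and 271 ± 33.0 at 40 DPE (SD, n = 3). For 1Cg0000041 the cultivars stood apart at 30 DPE, with 132 ± 80.6 in AC Morgan and 611 ± 257 in CDC Morrison, and were close at 35 DPE (530 ± 189 and 639 ± 231).

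In embryo the stage genes were alanine aminotransferase 2 (5Cg0002138), cytoplasmic malate dehydrogenase (1Cg0000900) and a steroid dehydrogenase match (2Cg0001708). 5Cg0002138 stood at 396 ± 27.8 CPM in AC Morgan and 604 ± 42.9 in CDC Morrison at 0 h and at 7.86 ± 1.37 and 10.9 ± 6.10 at 48 h. In endosperm they were serine carboxypeptidase 3 (6Cg0001292) and cathepsin B-like protease 3 (7Cg0000884), which belong to families of proteases that break down reserve proteins, and an NADP-dependent glyceraldehyde-3-phosphate dehydrogenase (5Cg0000539). The cathepsin B-like gene 7Cg0000884 had 178, 225 and 251 CPM in AC Morgan and 368, 293 and 302 in CDC Morrison at 0 h. At 48 h it had 5302, 5080 and 4553 CPM in AC Morgan and 9780, 9618 and 8681 in CDC Morrison. Each library of 48 h thus lay above every library of 0 h, and CDC Morrison lay above AC Morgan at both times.

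Between neighbouring times of grain development, the number of C genes that changed went up and down with that of all genes tested. From 10 to 15 DPE 7734 C genes changed (38.7%, all genes 38.1%), from 20 to 25 DPE 4174 (20.9%, all genes 20.0%), from 25 to 30 DPE 6441 (32.2%, all genes 31.3%) and from 30 to 35 DPE 6540 (32.7%, all genes 31.0%). From 5 to 10 DPE the number was 2929 (14.7%, all genes 14.7%). Few changed from 15 to 20 DPE (175, all genes 0.908%), of which 173 rose (all genes, 0.883% higher and 0.0242% lower), and from 35 to 40 DPE 1 C gene changed (all genes 0.00645%). From 30 to 35 DPE 2574 C genes rose and 3966 fell, beside 12.7 and 18.3% of all genes.

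The groups that changed with filling and with drying can be read from the lists. From 10 to 15 DPE, when 18.1% of all genes tested were higher and 20.0% lower, all 5 C genes of puroindolines rose (median 12.73 on the log2 scale), as did 2 of 2 tested genes of 12S globulins, 2 of 3 prolamins, 7 of 9 oleosins and caleosins, coat proteins of oil bodies, 8 of 10 late embryogenesis abundant proteins and 11 of 19 protease and amylase inhibitors. In the same step 37 of 56 C histone genes fell and 1 rose (median -1.03), and of 51 chlorophyll a-b binding and photosystem genes 25 fell and 1 rose (median -1.43). The median over all genes tested was -0.04. With libraries scaled by their size alone that median was -1.10, and 7.90% of the C genes called were higher in place of 49.4%. Under that scaling 9 of the 19 inhibitors were higher and 3 lower, and each of the other groups kept the direction of most of its called members. From 30 to 35 DPE 12.7% of all genes tested were higher and 18.3% lower. In that step 4 of 5 puroindolines, 18 of 56 histones and 31 of 113 transcription factors of the WRKY, NAC and MADS-box families fell. The numbers that rose are not given here.

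During germination the largest step was from 6 to 24 h. In embryo 10955 C genes changed then (all genes 54.6%), after 2481 from 0 to 3 h (all genes 11.5%) and 4077 from 3 to 6 h (all genes 19.9%) and before 5016 from 24 to 48 h (all genes 25.0%). In endosperm 37 C genes changed from 0 to 3 h (all genes 0.216%), 64 from 3 to 6 h (0.378%), 8640 from 6 to 24 h (41.8%) and 3671 from 24 to 48 h (17.9%). Without replicate 2 of CDC Morrison endosperm at 0 h the number from 0 to 3 h was 24, of which 22 were among the 37.

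In embryo, where 29.7% of all genes rose and 24.9% fell from 6 to 24 h, 49 of the 55 tested C histone genes rose and 2 fell (median 4.58), 50 of 138 ribosomal protein genes rose and 7 fell, and 11 of 23 aquaporins, water channels, rose and 3 fell. All 5 puroindolines, all 3 prolamins and 7 of 10 late embryogenesis abundant proteins fell. In endosperm, where 22.1% of all genes rose and 19.7% fell, 5 of 9 cysteine proteases of reserve breakdown rose and 0 fell, 87 of 284 disease resistance proteins rose and 27 fell, and 9 of 13 small heat shock proteins and 8 of 10 late embryogenesis abundant proteins fell. The histones of endosperm gave 2 higher and 6 lower calls. The median over all genes tested was 0.08 in embryo and 0.06 in endosperm for this step. With library size alone it was -0.05 in embryo and 0.46 in endosperm. Of the called C genes 45.0% were then higher in embryo in place of 51.9%, and 77.4% in endosperm in place of 53.6%. The counts of these groups under that scaling are not given here.

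The cultivars were compared as CDC Morrison minus AC Morgan. C genes that differed between the cultivars numbered 1669 at 5 DPE (8.35%, all genes 9.65%), 5016 at 10 DPE (25.1%, all genes 25.7%), 1612 at 15 DPE (8.07%, all genes 9.41%) and 2384 at 20 DPE (11.9%, all genes 13.4%). At 25 DPE there were 1637 (8.19%, all genes 9.64%), at 30 DPE 7276 (36.4%, all genes 36.2%), at 35 DPE 2301 (11.5%, all genes 12.7%) and at 40 DPE 2398 (12% of those tested, all genes 12.9%). The number was the highest at 30 DPE. It was the lowest at 15 DPE, though close to those at 5 and 25 DPE, and this low depended on the scaling. With library size alone 471 C genes were higher and 3811 lower at 15 DPE, beside 817 and 726 at 25 DPE. At 10 DPE only 2 libraries of CDC Morrison were used. At any time 9633 C genes differed (all genes 49.0%), and over the mean of the 8 times 6538 did (32.7%, all genes 34.6%), 3215 of them higher (all genes 16.9%) and 3323 lower (17.7%) in CDC Morrison.

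**Figure D4:**
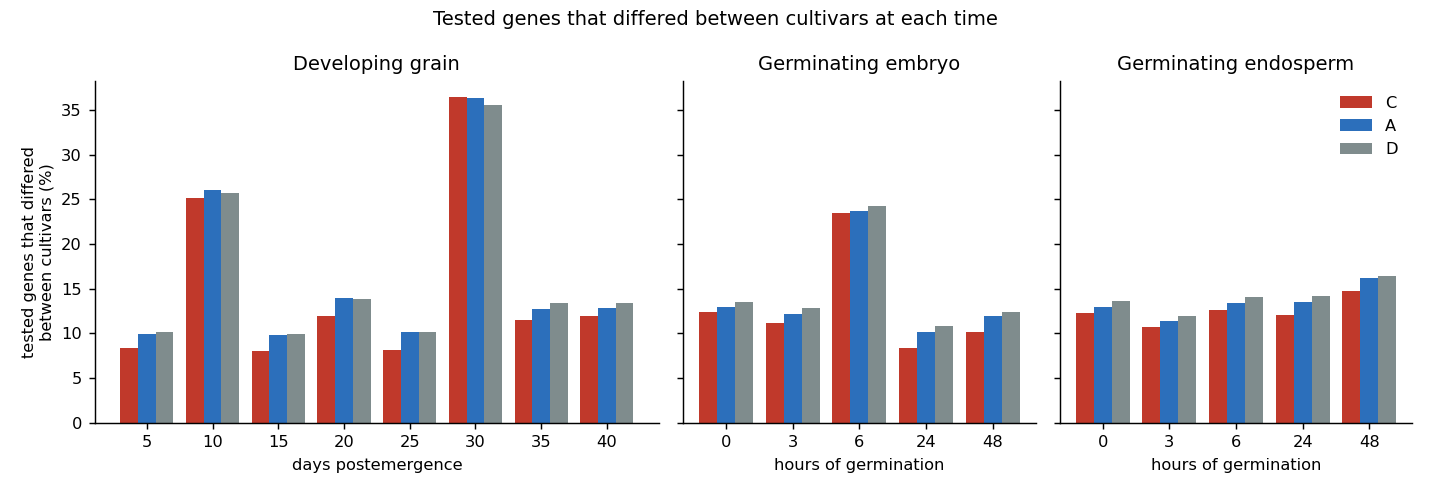
Percent of the tested A, C and D genes that differed between CDC Morrison and AC Morgan (edgeR, adjusted p under 0.05), by time, in developing grain, embryo and endosperm. The C value is the lowest of the 3 at 17 of the 18 times, the exception being 30 DPE, where 36.4% of the C genes, 36.4% of the A genes and 35.5% of the D genes were called.

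In germinating embryo the C calls were 2483 at 0 h (all genes 13.1%), 2238 at 3 h (12.2%), 4691 at 6 h (24.0%), 1669 at 24 h (9.97%) and 2030 at 48 h (11.7%), and over the mean of the 5 times 6173 C genes differed (30.9%, all genes 31.9%), 3770 higher (all genes 18.7%) and 2403 lower (13.2%) in CDC Morrison. In endosperm they were 2456 (13.0%), 2139 (11.5%), 2516 (13.4%), 2417 (13.4%) and 2940 (15.9%) at the same times, and 6899 over the mean (34.5%, all genes 35.4%), 3756 higher (18.7%) and 3143 lower (16.8%). At any time 6201 C genes differed in embryo (all genes 32.2%) and 6019 in endosperm (all genes 30.9%). The share of the called C genes that were higher depended on the scaling. With library size alone it was 34.0% in grain in place of 49.2% and 43.2% in endosperm in place of 54.4%, and in embryo it was 57.0% in place of 61.1%.

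The called share of C was the lowest of the 3 subgenomes at 17 of the 18 single times. With alternative settings this number was 15 (library size alone) to 18. In the 15 steps between neighbouring times C had the highest called share in 10 and the lowest in 3, and in the comparisons of embryo with endosperm it had the highest in 5 of 5. These orders depended on the setting. With a change of at least 1 on the log2 scale required, C was the highest in 3 steps and the lowest in 10, and the highest in 2 of the 5 comparisons of tissues. With thinned counts it was the highest in 7 steps and the lowest in 6, and without replicate 2 in 5 and 5. Without replicate 2 or 3, CDC Morrison at 10 DPE keeps a single library. These comparisons share libraries, and the counts are a description. In the groups of 3 the C gene was called least often in 11 of 18 cultivar comparisons, and most often in 14 of 15 steps between times and in 5 of 5 comparisons of tissues. Over the mean of the times the shares of these genes that differed between the cultivars were 32.9% for C, 34.7% for A and 34.4% for D in grain, 32.6, 32.5 and 32.3% in embryo and 38.8, 37.0 and 38.4% in endosperm. At any time C had the highest share in all 3 tissues (in grain 52.3, 50.4 and 48.6%). An interaction of cultivar and time was called for 35.2, 31.8 and 28.1% in grain, and C was the highest in embryo and endosperm too. With the tested genes of grain divided into 5 classes of abundance, 37.4% of the C genes differed between cultivars over the mean of the times, against 43.6% of A and 41.7% of D, in the most abundant class, and 22.0%, against 20.1 and 20.8%, in the least abundant.

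The C genes named next had a protein match, differed between the cultivars over the mean of the times, and had no overlap of the cultivars' libraries at any time of the tissue. The gene with the smallest p in grain was 6Cg0001905, a match to an FGGY carbohydrate kinase (a sugar kinase family). It had 3.25, 3.14 and 4.38 CPM in AC Morgan and 48.2, 50.4 and 43.3 in CDC Morrison at 5 DPE, and 1.82, 2.21 and 1.56 in AC Morgan and 96.7, 73.9 and 67.9 in CDC Morrison at 40 DPE. No library of AC Morgan came near any of CDC Morrison. Over the mean of the times its log2 difference was 4.45 ± 0.0778 (approximate SE). Its adjusted p was 1.92e-32 (quasi-likelihood test of edgeR, Benjamini-Hochberg adjusted). Here and for the other log2 differences, the approximate SE is the absolute difference divided by the square root of the F of the test. It is not a standard error of the fitted coefficient. In embryo the difference was 4.08 ± 0.113 (adjusted p = 5.43e-32) and in endosperm 5.00 ± 0.128 (adjusted p = 5.60e-33).

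Others were higher in CDC Morrison. Phosphoenolpyruvate carboxylase 1 (6Cg0002267), which fixes bicarbonate into oxaloacetate, had group means of 4.88 to 8.15 CPM in AC Morgan grain and 38.9 to 87.1 in CDC Morrison. 6Cg0002926, a match to a yeast protein named for altered inheritance of mitochondria, had 4.03 to 7.95 against 35.3 to 59.3. Methylthioribose kinase 1 (4Cg0000013), an enzyme of methionine salvage, had 5.55 to 14.8 CPM in AC Morgan embryo and 44.6 to 111 in CDC Morrison, and it was higher in endosperm too (10.7 to 15.7 against 58.3 to 150). Peroxisomal acyl-CoA oxidase 3 (4Cg0001820), of fatty acid breakdown, had 3.47 CPM at 0 h and 29.5 at 48 h in AC Morgan endosperm, and 49.0 and 369 in CDC Morrison.

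Lower in CDC Morrison were 3Cg0000826, a match to Protein usf, and 6Cg0000471, a match to a methyl-CpG-binding domain protein. For 3Cg0000826 the grain libraries at 15 DPE had 27, 29.1 and 29.4 CPM in AC Morgan and 0.896, 1.36 and 1.75 in CDC Morrison, and the log2 difference over the mean of the times was -4.29 ± 0.0835 (adjusted p = 4.62e-31, edgeR). For 6Cg0000471 the group means were 8.85 to 19.9 in AC Morgan grain and 0.0624 to 0.478 in CDC Morrison. In endosperm the glutamyl-tRNA amidotransferase subunit B match 1Cg0000584, an organellar enzyme of tRNA charging, had 26.9, 23.1 and 24.6 CPM in AC Morgan and 4.25, 3.78 and 2.59 in CDC Morrison at 0 h. Its cultivars were farther apart at 48 h, with 37.0, 28.7 and 30.1 against 1.51, 1.21 and 1.54 CPM.

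Some C genes were at or near 0 in all libraries of 1 cultivar. The match to a subunit of replication protein A, 2Cg0000216, which binds single-stranded DNA, had 173, 165 and 172 CPM in AC Morgan endosperm at 0 h and 0.0987, 0 and 0 in CDC Morrison. The ALP1-like gene 4Cg0001630 had group means of 9.25 to 26.2 CPM in AC Morgan grain, and in CDC Morrison no grain library exceeded 0.112. The caffeoylshikimate esterase match 1Cg0000792, of lignin synthesis, was the reverse, with at most 0.163 CPM in any AC Morgan embryo library and group means of 14.9 to 34.5 in CDC Morrison. The corepressor match 7Cg0000004 (LEUNIG_HOMOLOG) and the retrotransposon protein match 6Cg0002277 were near 0 in CDC Morrison embryo. No fold change is given for these genes, since libraries at 0 leave it undefined.

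Groups of C genes were counted over the mean of the times, as CDC Morrison minus AC Morgan. In embryo, where 18.7% of all genes tested were higher and 13.2% lower (median 0.05), 6 of 138 genes for ribosomal proteins were higher and 39 lower (median -0.20), 3 of 55 histone genes were higher and 17 lower (median -0.75), and 88 of 284 disease resistance genes were higher and 30 lower (median 0.26). In endosperm, where 18.7% of all genes were higher and 16.8% lower (median 0.01), the ribosomal protein genes gave 7 higher and 34 lower (median -0.14), the histones 5 and 2 (median -0.21) and the disease resistance genes 62 and 36 (median 0.14). In grain, where 16.9% of all genes were higher and 17.7% lower (median -0.02), ribosomal protein genes gave 13 higher and 22 lower of 137 (median -0.01), histones 6 and 13 of 56 (median -0.19) and disease resistance genes 49 and 43 of 262 (median -0.05). With library size alone the last became 45 and 60. Of the 5 puroindolines 4 were lower in endosperm, 1 in embryo and 2 in grain, and 0 were higher.

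Cultivar and time interacted for 5671 C genes in grain (28.4%, all genes 27.6%), for 1812 in embryo (9.07%, all genes 9.0%) and for 603 in endosperm (3.02%, all genes 2.98%). In grain the A and D shares were 27.7 and 26.9%. With 1 replicate number left out of every group the grain count was 1283 to 3152.

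The C chromosomes did not all differ alike between the cultivars. Chromosome 1C has the fewest genes of the 7, 1899. Over the mean of the times 863 of its 1677 tested genes (51.5%) differed between CDC Morrison and AC Morgan in grain, 370 higher and 493 lower. The other C chromosomes lay between 26.1% (2C) and 38.0% (6C). In embryo 797 of 1682 genes of 1C were called (47.4%) and in endosperm 786 (46.7%), and in each tissue 1C had the highest called share of all 21 chromosomes. The next in grain were 7D (42.5%), 1D (42.4%), 1A (41.8%) and 7A (41.7%). 1C kept this rank under the other scalings, filters and tools, with thinned counts, with the block and without each replicate number, with 34.6 to 55.0% over tissues and settings. The rank with a required change of 1 on the log2 scale was not computed.

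**Figure D5:**
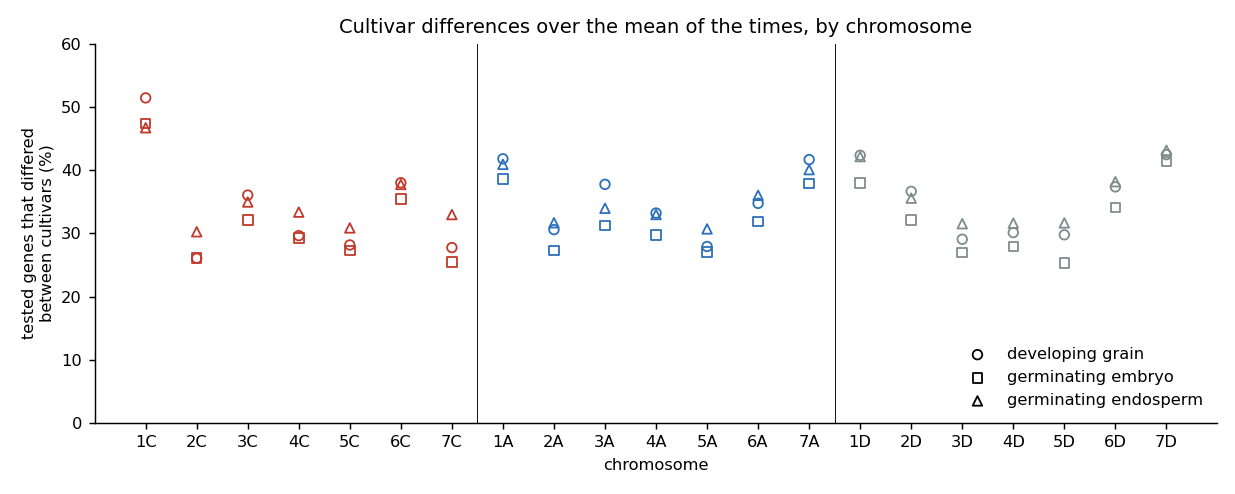
Percent of tested genes that differed between CDC Morrison and AC Morgan over the mean of the times, for each chromosome (horizontal axis) in each tissue. Chromosome 1C has the highest value in every tissue (51.5% in grain, 47.4% in embryo, 46.7% in endosperm).

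Chromosome 1C was at the other end for stage. Among the C chromosomes it had the lowest share of genes that differed among the times, 84.3% in grain, 75.7% in embryo and 56.2% in endosperm, where the other C chromosomes had 88.7 to 91.9%, 81.4 to 85.2% and 63.2 to 67.1%. It also had the lowest detected share of the C chromosomes, 54% in grain, 57.4% in embryo and 48.8% in endosperm. In grain 56.3% of the genes of 1C were detected in AC Morgan and 51.6% in CDC Morrison. Every chromosome had the lower share in CDC Morrison in grain, 7D with a larger difference (61.5 against 55.8%) and 7A with a like one (62.1 against 57.6%).

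Genes that reached 5 counts in every thinned library of 1 cultivar and in no library of the other were counted, a measure added after the data had been seen. Over all libraries there were 51 such C genes, 38 seen in AC Morgan alone and 13 in CDC Morrison alone, which is 0.723% of the C genes detected throughout a cultivar, against 0.559% for A and 0.698% for D. Chromosome 1C held 20 of the 51 (14 and 6), 3.70% of its 540 genes so detected, and the other C chromosomes had 0.167 to 0.998%. Of the A and D chromosomes 7D had 21 in AC Morgan alone and 0 in CDC Morrison alone (1.86%), and 7A had 12 and 2 (1.42%). Within tissues 1C had 35 in grain, 25 in AC Morgan alone and 10 in CDC Morrison alone (5.38%), where 7D had 30 and 2 (2.40%). In embryo 1C had 36 and 16 (6.09%), and 7D had 75 and 1 (4.30%). A missing or diverged gene in the cultivar, reads that fail to match the reference and a silent gene cannot be told apart in these counts. In runs of 200 gene numbers along 1C, 40.2 to 61.4% of the genes were called in grain, and single runs of other chromosomes came up to 55.7% (4C) and 53.8% (7C). Whether the gene numbers follow position along the chromosome was not checked.

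The C chromosomes also differed in how much they were expressed for their number of genes. In grain the ratio of the share of counts to the share of genes was lowest for 3C (0.635) and highest for 7C (0.996), which carries the globulin-like gene 7Cg0001208 and the avenin gene 7Cg0003031. In embryo 7C had 1.05 and in endosperm 1.14. The share of 3C in grain went from 1.48 to 3.78% of the counts over the libraries.

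Embryo and endosperm differed at 7888 C genes at 0 h (all genes 38.6%), 9341 at 3 h (45.5%), 11096 at 6 h (54.4%), 12475 at 24 h (61.3%) and 12371 at 48 h (61.4%). Over the mean of the hours 13394 C genes differed (67.1%, all genes 66.3%, A 66.2%, D 66.2%), 7489 higher (all genes 37.6%) and 5905 lower (28.8%) in embryo. The median over all genes tested was 0.18 toward embryo, and with library size alone it was 0.66 and 79.2% of the called C genes were higher in embryo in place of 55.9%.

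The genes higher in embryo included those of dividing cells. Of 55 tested C histone genes 38 were higher and 0 lower, of 138 ribosomal protein genes 122 were higher and 4 lower, and of 16 expansins, proteins that loosen cell walls, 10 were higher and 4 lower. The C gene with the smallest p among those higher was 7Cg0000948, matched to the chromatin remodeler DDM1, with a log2 difference of 5.97 ± 0.130 (adjusted p = 1.46e-36, edgeR). It had 73.0 ± 5.38 CPM in AC Morgan embryo at 24 h and 0.72 ± 0.165 in endosperm. The replication licensing factor MCM6 (1Cg0000664) had 182 ± 2.68 CPM in AC Morgan embryo at 24 h, after 6.07 ± 0.611 at 0 h, and 3.32 ± 1.02 in endosperm at 24 h. RAN GTPase-activating protein 2 (7Cg0000803) and beta-galactosidase 5 (4Cg0001237) were the next.

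The genes higher in endosperm included storage and coat protein genes. All 5 puroindolines, 2 of 3 tested 12S globulins, 2 of 2 7S globulins and 6 of 9 oleosins and caleosins were lower in embryo, with 0, 0, 0 and 2 higher. The C gene with the smallest p was 2Cg0002353, matched to ABC transporter G family member 11, which exports wax and cutin in Arabidopsis. It had 26.3 ± 5.88 CPM in AC Morgan embryo and 204 ± 41.9 in endosperm at 0 h, and its log2 difference was -3.68 ± 0.0684 (adjusted p = 8.11e-39, edgeR). 4-coumarate-CoA ligase-like 1 (4Cg0001168), actin-depolymerizing factor 2 (7Cg0000604), which severs actin filaments, and a ribonuclease H match (2Cg0000374) followed.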

How the data were processed

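Estimated counts per gene were deposited by the authors for 108 libraries, as Salmon quantification gives them, against the OT3098 v2 oat reference. Per the labels, libraries were made with a stranded mRNA kit and read from a single end, and the submitters' processing notes name FastQC, Trim Galore, Bowtie2, Salmon and DESeq2. Salmon assigns a read that matches several genes in parts, so the counts of near-identical homeologs depend on that division. The authors' normalized tables were not used, and 0 columns of the count tables belonged to no sample.

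The expected counts deposited by the authors were rounded for tests. CDC Morrison at 10 DPE replicate 1 was left out. The 47 grain libraries and the 60 germination libraries were fitted separately in edgeR 4.0.16 (R 4.3.3) with genes of at least 5 counts in at least 5% of libraries, TMM scaling, trended dispersion and quasi-likelihood F tests, with Benjamini-Hochberg adjustment over all genes tested and a threshold of 0.05. DESeq2 1.42.0 was an alternative. Other alternatives were RLE scaling, library size alone, no filter, the edgeR filter by expression, thinned counts, a change of at least 1 on the log2 scale, a replicate block and leaving out each replicate number. Shares of counts were not tested. Tables were handled in pandas 2.3.3 and numpy 2.4.6 under Python 3.11.15, and the tests were tried on simulated counts.

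Members, gene lists and tests were chosen with earlier results of these data known, and the patterns for 7S globulins, late embryogenesis abundant and small heat shock proteins were corrected after the annotation text had been seen. Genes were named by rule: the 5 C genes of highest mean CPM per tissue; of genes whose cultivars overlapped at no time, the 3 of smallest p in each direction per tissue; the 4 higher and 4 lower in embryo with the smallest p; the 3 per tissue with the largest F for stage at a mean of at least 100 CPM; the C genes of the 3 groups of 3 with the largest and the 3 with the smallest C share at 500 CPM or more; and the chromosomes with the extreme values. Genes without a protein match were passed over except among the most abundant.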

Additional observations from a re-analysis of the deposited data

Results flagged for a closer look

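The C share of counts differed between CDC Morrison and AC Morgan by -4.5003 percentage points at 15 DPE and by 3.5261 points at 30 DPE, with every library of 1 cultivar on the same side of the other at each time. The change of sign between the times was not tested. Storage protein genes took 37.6 and 53.9% of the counts at 15 DPE and 27.1 and 9.5% at 30 DPE in AC Morgan and CDC Morrison. At both times their share was the higher in the cultivar with the lower C share.

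The cultivar difference depended on time, by the interaction in edgeR's quasi-likelihood test, for 5671 of 19978 tested C genes in developing grain (all genes 27.6%). In germination, with 19974 C genes tested, it did so for 1812 in embryo (all genes 9.0%) and 603 in endosperm (all genes 2.98%). The C shares lay close to those of all genes. Each of these C counts was lower with any replicate number left out of every group, as given below for embryo and endosperm.

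Genes with no chromosome took 36.2099% of the counts in CDC Morrison endosperm replicate 2 at 0 h, and 7.8906% in the library that was left out, CDC Morrison grain at 10 DPE replicate 1.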

How the results depend on the processing

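Settings marked here as added were chosen after the data had been seen. The C share of counts, as the mean over groups, was 25.3% in grain, 29.3% in embryo and 27.1% in endosperm. It was 29.6, 29.8 and 29.6% without the 100 most abundant genes, 29.1, 29.6 and 28.7% with each gene capped at 1000 CPM, and, as added settings, 29.5% in grain without storage protein genes and 29.8% in embryo and 28.4% in endosperm as a share of the counts on A, C and D genes. C genes detected were 77.4, 78.7 and 72.2% with at least 1 count, 34.8, 39.4 and 32.3% with at least 20 counts, and 76.6, 74.2 and 65.1% without thinning.

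With a change of at least 1 on the log2 scale required, the counts of C genes called between neighbouring times were 1749 (5 to 10 DPE), 4041 (10 to 15), 1754 (20 to 25), 2774 (25 to 30) and 2838 (30 to 35) in grain, 778, 1388, 6957 and 2285 in embryo, and 22, 29, 4796 and 1647 in endosperm. The cultivar counts over the mean of the times were then 2002 in grain, 2163 in embryo and 2450 in endosperm, with 1629 in endosperm at 0 h, and embryo and endosperm differed at 4730 C genes at 0 h, 5641 at 3 h, 7275 at 6 h and 5977 over the mean. With library size alone, 4282 C genes differed between cultivars at 15 DPE, 14349 changed from 10 to 15 DPE and 292 from 3 to 6 h in endosperm, and 378 had an interaction in endosperm. With thinned counts, 1580 changed from 0 to 3 h in embryo, 17 from 0 to 3 h and 17 from 3 to 6 h in endosperm and 0 from 35 to 40 DPE, cultivars differed at 1601, 1278 and 1638 in endosperm at 0, 3 and 6 h, and 1136 in embryo and 271 in endosperm had an interaction. DESeq2 gave 373 from 15 to 20 DPE, 9 from 35 to 40 DPE and 194 from 3 to 6 h in endosperm. As added settings, all 48 grain libraries gave 102 from 15 to 20 DPE, and leaving out replicate 2 of CDC Morrison endosperm at 0 h gave 24 from 0 to 3 h. DESeq2 and the required change were applied to single contrasts and not to the joint tests over times. With the required change, the called share of C was the lowest of the 3 subgenomes in 10 of the 15 steps between neighbouring times and the highest in 3. The cause of these shifts was not tested.

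Leaving out each replicate number in turn gave 2212 to 3908 C genes that differed between cultivars at 10 DPE, 901 to 1172 at 15 DPE, 1276 to 1981 at 20 DPE, 959 to 1117 at 25 DPE, 3438 to 7323 at 30 DPE, 1207 to 1584 at 35 DPE, 1282 to 1515 at 40 DPE and 4904 to 6664 at any time, and an interaction in 1283 to 3152. Between neighbouring times of grain it gave 982 to 2515, 4662 to 5765, 0 to 144, 1350 to 2933, 3220 to 5715, 1661 to 4987 and 0 to 1. In embryo the cultivar counts were 1086 to 1813, 1096 to 1927, 2007 to 4299, 790 to 1362 and 1143 to 1585 from 0 to 48 h and 3338 to 5255 at any time, the steps 222 to 1876 (0 to 3 h), 1645 to 3411 (3 to 6 h) and 2348 to 4410 (24 to 48 h), and the interaction 345 to 1498. In endosperm the cultivar counts were 1087 to 1689, 1045 to 1539, 1181 to 1956, 977 to 2418 and 1163 to 2737, 4543 to 6002 over the mean and 2862 to 5078 at any time, the steps 0 to 21, 1 to 28 and 1565 to 3516 (24 to 48 h), and the interaction 29 to 455.

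The replicate numbers were not used to pair the samples, since not every correlation of same-numbered deviations exceeded 0.1. It did in 3 of 23 pairs in grain, 4 of 15 in embryo, 3 of 15 in endosperm and 16 of 30 between embryo and endosperm (median 0.16, highest 0.78). The common dispersion of the germination fit was 0.0874 without the block and 0.0709 with it. It was 0.0498 without replicate 1, 0.113 without replicate 2 and 0.101 without replicate 3. With the replicate number as a block, 6460 C genes in grain, 6587 in embryo and 7244 in endosperm differed between cultivars over the mean of the times and 13553 differed between embryo and endosperm, and the block moved 0 of 51 counts by over 1.5 times.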
